A study of Homo sapiens with 12 samples.

Results

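The 9 genes described here encode the NOTCH receptors, NOTCH1, NOTCH2, NOTCH3 and NOTCH4, and their canonical ligands, the Jagged proteins JAG1 and JAG2 and the Delta-like proteins DLL1, DLL3 and DLL4. They were taken by symbol, with no threshold on a measured value, from 39368 gene symbols in each of the count tables of CAL27 and HSC3 cells, and all 9 were present in both tables. CAL27 and HSC3 are established HPV-negative head and neck squamous cell carcinoma lines. In the cells of all 4 groups a lentiviral vector held a doxycycline (DOX)-inducible shRNA against MUC1 (tet-MUC1shRNA), and the cells received 0.1% DMSO as vehicle or 500 ng/ml DOX for 7 days. Each line and treatment gave 3 libraries of poly(A) RNA, 12 in all, from cultures grown in triplicate, so that p-values reflect the spread between cultures of 1 line and not between tumors or clones. DOX-treated cells with the control shRNA vector were not analysed here, so loss of MUC1 and other effects of DOX or of an induced shRNA cannot be told apart.

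NOTCH receptors are single-pass membrane proteins that are cut by furin during maturation and carried to the cell surface. A ligand on a neighboring cell pulls on the receptor, ADAM proteases and then γ-secretase cut it, and the released intracellular domain joins RBPJ and a MAML coactivator on DNA to switch on genes of the HES and HEY families. Fringe glycosyltransferases change which ligands a receptor answers. In squamous epithelium the pathway is known for promoting differentiation, and NOTCH1 is often mutated in head and neck squamous carcinoma. DLL3 differs from the other ligands in that it does not activate receptors on neighboring cells.

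The libraries held between 89730914 and 169065103 counts. In CAL27 the vehicle libraries had totals of 126328662, 97477659 and 108406101 and the DOX libraries of 97280495, 92866845 and 117677241. In HSC3 the vehicle totals were 125052179, 89730914 and 130393198, and the DOX totals 169065103, 146548684 and 134231542. Large totals did not give even precision at low counts. Among genes expected to have 8 to 16 counts, between 1.18% and 4.10% were at 0 in the CAL27 libraries, against 7.45% to 21.9% in HSC3 vehicle and 51.7%, 27.9% and 36.8% in HSC3 DOX replicates 1, 2 and 3. Reads were not counted as molecules, so any limit drawn from a count of 0 covers counting error only. Levels below are TMM-normalized CPM (counts scaled to a common library size) on 1 scale for the 12 libraries. For shares and orders of receptors and ligands, levels are divided by the length of the gene's merged exons (CPM per kb) unless another scale is named. Other levels, such as sums of marker lists and their leading genes, are in CPM unless stated. Fold changes with DOX come from a fit to each line with edgeR's quasi-likelihood test, and the call threshold was 0.05 for p adjusted by Benjamini and Hochberg's method across every gene in the fit.

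The target of the shRNA was read first. MUC1, a transmembrane mucin on chromosome 1 from 155185824 to 155192916 (GRCh38, minus strand), had 58.4, 53.1 and 54.4 CPM in the CAL27 vehicle libraries and 2.92, 2.76 and 3.25 CPM with DOX. In HSC3 cells it had 1.66, 1.97 and 1.64 CPM with vehicle and 0.310, 0.267 and 0.132 CPM with DOX. The log2 fold change was -4.21 (SE 0.0666, edgeR adjusted p = 1.62e-19) in CAL27 and -2.88 (SE 0.376, edgeR adjusted p = 2.02e-04) in HSC3, and no DOX library overlapped the vehicle range of its line. HSC3 cells thus held 3.16% of the CAL27 level of MUC1 RNA before DOX (log2 -4.98, SE 0.146, edgeR adjusted p = 1.71e-13). Markers of squamous keratinocytes were abundant in both lines: KRT5, a basal keratin, had a mean of 3701 CPM in CAL27 and 2887 CPM in HSC3 vehicle libraries, and TP63, the master factor of squamous epithelium, had 851 and 805 CPM.

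Before DOX the lines had similar levels of the Jagged ligands under TMM scaling and very different levels of NOTCH1 and NOTCH3. Tests of HSC3 against CAL27 vehicle libraries called 62.9% of the 20694 genes tested, 32.3% lower and 30.6% higher in HSC3, and the median log2 difference of all genes was -0.118. Of the 9 members, 3 were lower in HSC3 (NOTCH1, NOTCH3 and DLL1), 2 were higher (NOTCH2 and DLL4), 3 were not called and NOTCH4 had too few counts to test. With a fold change above 2 as well, NOTCH1 and NOTCH3 were lower and DLL4 higher, beside 18.7% and 13.2% of all genes. The share of members called was thus close to that of all genes.

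NOTCH3 lies on chromosome 19 from 15159038 to 15200995 (GRCh38, minus strand) and encodes a receptor best known from vascular smooth muscle. It had 193, 175 and 184 CPM in the CAL27 vehicle libraries and 0.850, 1.48 and 1.28 CPM in the HSC3 vehicle libraries. HSC3 held 0.645% of the CAL27 level, a log2 difference of -7.28 (SE 0.191, edgeR adjusted p = 5.28e-14). NOTCH1, on chromosome 9 from 136494433 to 136546048 (minus strand), had 209, 195 and 202 CPM in CAL27 and 18.4, 16.2 and 15.2 CPM in HSC3, which is 8.20% of the CAL27 level (log2 -3.61, SE 0.104, edgeR adjusted p = 1.50e-13). NOTCH2, on chromosome 1 from 119911553 to 120100779 (minus strand), went the other way, with 181, 175 and 186 CPM in CAL27 and 213, 200 and 210 CPM in HSC3 (log2 0.20, SE 0.0481, edgeR adjusted p = 0.00171). This small difference depended on scaling: with library totals in place of TMM it was -0.07 and was not called.

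Among the ligands, JAG1, on chromosome 20 from 10637684 to 10673999 (minus strand), had 332, 319 and 337 CPM in CAL27 and 342, 343 and 349 CPM in HSC3 vehicle libraries. The log2 difference of 0.07 (SE 0.0433, edgeR adjusted p = 0.205) was not called, but with library totals it was -0.20 and JAG1 was called lower in HSC3 (edgeR adjusted p = 4.17e-04, range over alternatives up to 0.714). JAG2, on chromosome 14 from 105140982 to 105168824 (minus strand), had 96.7, 94.8 and 89.9 CPM in CAL27 and 83.8, 89.5 and 70.3 CPM in HSC3 (log2 -0.21, SE 0.0937, edgeR adjusted p = 0.0657), and 8 of 19 alternative settings called it. DLL1, on chromosome 6 from 170282206 to 170306565 (minus strand), was lower in HSC3, with 15.9, 16.8 and 14.9 CPM against 21.1, 22.8 and 22.4 CPM (log2 -0.48, SE 0.121, edgeR adjusted p = 0.00279). DLL4 (chromosome 15, 40929340 to 40939073, plus strand), the ligand of sprouting blood vessels, was scarce in both lines, with 22, 54 and 38 counts in HSC3 and 2, 10 and 10 in CAL27 (log2 2.62, SE 0.642, edgeR adjusted p = 0.00218). DLL3 (chromosome 19, 39498895 to 39508481, plus strand) had 20 to 50 counts in HSC3 and 11 to 29 in CAL27, with overlapping CPM. NOTCH4 (chromosome 6, 32194843 to 32224067, minus strand), a receptor of endothelium, had 6, 0 and 2 counts in CAL27 and 2, 14 and 24 in HSC3 vehicle libraries, where 3 counts correspond to between 0.0218 and 0.0365 CPM.

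Per length of exon, the order of the receptors in CAL27 vehicle libraries was NOTCH3 (18.6 to 20.5 CPM per kb), NOTCH1 (15.6 to 16.7), NOTCH2 (10.4 to 11.1) and NOTCH4 (at most 0.00446). The ranges of these neighbors did not overlap. NOTCH3 made up 42.1% ± 0.588 (SD, n = 3) of the summed receptor level, NOTCH1 34.7% ± 0.264 and NOTCH2 23.2% ± 0.653. The first place of NOTCH3 rested on its short exons of 9408 bases against 12531 in NOTCH1 and 16744 in NOTCH2: without division by length its share was 32.5% and NOTCH1 had the higher level, 202 ± 6.99 against 184 ± 9.23 CPM. In HSC3 vehicle libraries NOTCH2 made up 89.4% ± 0.647 of the receptor level, NOTCH1 9.53% ± 0.797 and NOTCH3 0.928% ± 0.276, and their ranges were far apart under every length used. The summed receptor level was 46.5 ± 1.74 CPM per kb in CAL27 and 13.9 ± 0.452 in HSC3.

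The first 3 ligands came in the same order in both lines. JAG1 made up 63.3% ± 1.18 of the summed ligand level in CAL27 and 68.5% ± 2.53 in HSC3, followed by JAG2 with 26.2% ± 1.07 and 23.4% ± 2.26 and DLL1 with 10.4% ± 0.525 and 7.67% ± 0.261. DLL3 and DLL4 together stayed under 1% of the ligand level in both lines, and in HSC3 their ranges overlapped. The summed ligand level, 55.9 ± 0.638 CPM per kb in CAL27 and 54.1 ± 1.47 in HSC3, was similar in both lines, unlike the receptor level.

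**Figure D1:**
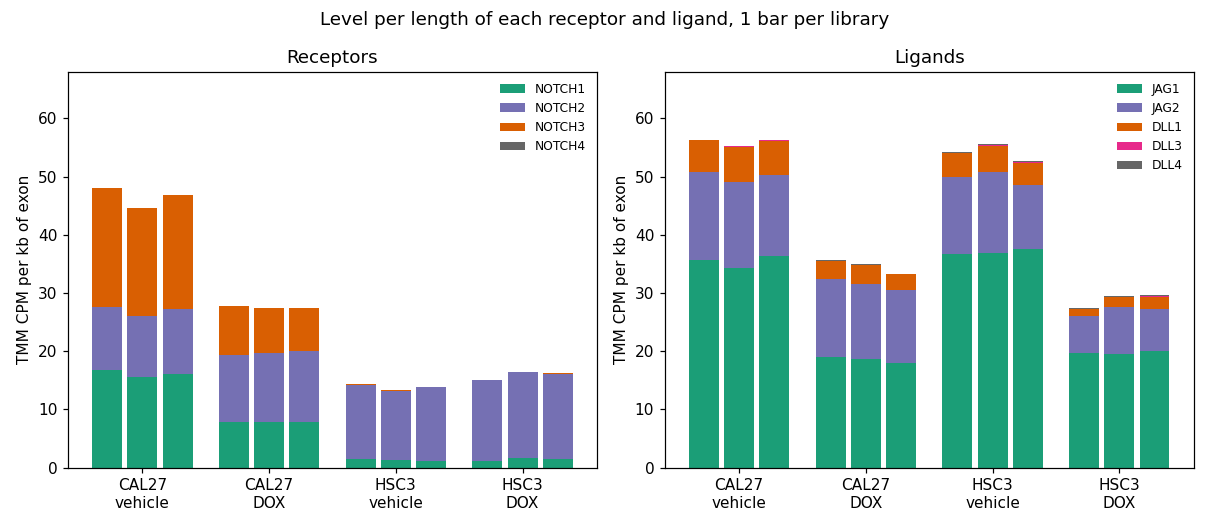
Stacked bars give the level of each receptor (left) and ligand (right) in TMM CPM per kb of exon, with 1 bar per library and 3 libraries per group. The orange NOTCH3 and green NOTCH1 blocks are large in CAL27 and almost missing in HSC3, NOTCH2 is present in all libraries, and with DOX the summed receptor level fell to 27.5 CPM per kb in CAL27 while the ligand level fell in both lines.

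The 120 bases before the RefSeq start site (GRCh38.p14, minus strand) of NOTCH1 at chr9:136546049-136546168, of NOTCH3 at chr19:15200996-15201115 and of JAG1 at chr20:10674000-10674119 are shown because these were the most abundant members that fell with DOX in CAL27; in HSC3, JAG1 alone of the 3 was called lower. Capitals mark matches to the GC box GGGCGG on either strand.
NOTCH1: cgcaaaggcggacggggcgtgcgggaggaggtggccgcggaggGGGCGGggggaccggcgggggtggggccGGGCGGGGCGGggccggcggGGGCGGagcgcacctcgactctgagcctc
NOTCH3: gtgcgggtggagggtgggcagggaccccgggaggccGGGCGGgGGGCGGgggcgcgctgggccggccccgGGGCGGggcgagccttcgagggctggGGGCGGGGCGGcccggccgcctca
JAG1: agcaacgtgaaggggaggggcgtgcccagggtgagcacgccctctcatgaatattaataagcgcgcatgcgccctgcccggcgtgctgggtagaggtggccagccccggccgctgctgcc
In the 250 bases before the start, NOTCH3 held 5 GC boxes, NOTCH1 held 4 and JAG1 held 2, the last at 219 and 183 bases before the start and so outside the stretch shown. All 7 members with a RefSeq promoter had at least 1 GC box, against 42.6% of 35116 promoters. DLL1 and DLL3 were not matched. Searched on both strands, the RBPJ core TGGGAA (20.8% of promoters), the interferon-γ activated site TTCNNNGAA (6.57%) and the TATA box TATAAA (10.7%) were found in 0 of the 7, and the AP-1 motif TGANTCA (6.57%) in NOTCH4 alone. A match of letters is a description of the sequence and says nothing of binding.

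The first question of the DOX comparison was which receptors and ligands changed when the MUC1 shRNA was induced in CAL27 cells. NOTCH1 and NOTCH3 RNA fell to 48.5% and 39.6% of the vehicle level, JAG1 and DLL1 to 52.4% and 52.1%, and JAG2 fell slightly, whereas NOTCH2 rose slightly. In all, 6 of the 8 members tested fell and 2 rose, where 21.8% of the 19239 genes tested fell and 22.6% rose (44.5% in either direction). The median log2 fold change was -0.94 over the 8 members and -0.01 over all genes. With a fold change above 2 required as well, NOTCH1, NOTCH3 and DLL3 counted as lower and DLL4 as higher, beside 5.11% and 1.31% of all genes. In bulk RNA, fewer cells that express a gene and less of its RNA per cell cannot be told apart.

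NOTCH3 showed the largest change among the receptors of CAL27 cells. From 193, 175 and 184 CPM with vehicle it fell to 78.2, 72.0 and 69.1 CPM with DOX, so that the highest DOX library lay far below the lowest vehicle library (log2 -1.34, SE 0.0459, edgeR adjusted p = 1.58e-14). NOTCH1 fell from 209, 195 and 202 CPM to 98.1, 98.2 and 98.4 CPM (log2 -1.04, SE 0.0376, edgeR adjusted p = 2.35e-14), and the 3 DOX libraries were nearly equal. NOTCH2 had 193, 199 and 203 CPM with DOX, all above its vehicle libraries (log2 0.13, SE 0.0389, edgeR adjusted p = 0.00822). That rise lost its call in 4 of 13 alternative settings. NOTCH4 had 0, 0 and 4 counts with DOX. With DOX, NOTCH2 was the first receptor per length, with 43.2% ± 1.36 of the receptor level, and NOTCH1 (28.5% ± 0.246) and NOTCH3 (28.3% ± 1.61) overlapped on this scale. By the longest transcript NOTCH1 had 27.9% and NOTCH3 23.5%, and without division by length 26.6% and 19.8%, with no overlap on either scale. The summed receptor level went from 46.5 ± 1.74 to 27.5 ± 0.193 CPM per kb.

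Of the CAL27 ligands, JAG1 went from 332, 319 and 337 CPM to 177, 173 and 168 CPM (log2 -0.93, SE 0.0382, edgeR adjusted p = 1.46e-13). DLL1 fell with it, from 21.1, 22.8 and 22.4 CPM to 11.9, 12.5 and 10.3 CPM (log2 -0.94, SE 0.0710, edgeR adjusted p = 1.46e-09). JAG2 had 85.3, 82.7 and 80.3 CPM with DOX against 96.7, 94.8 and 89.9 CPM with vehicle, a fall of 0.18 on the log2 scale (SE 0.0407, edgeR adjusted p = 9.14e-04). The groups did not overlap for any of these 3 ligands. The share of all genes without such overlap is not given here, so this describes the libraries and adds no test. JAG2 accordingly took a larger share of the ligand level with DOX, 37.4% ± 0.333 against 26.2% ± 1.07 with vehicle, and JAG1 a smaller one, 53.7% ± 0.354. DLL3 and DLL4 were called on few counts. DLL3 counts were 29, 26 and 11 in vehicle libraries and 12, 6 and 2 in DOX libraries, with overlapping CPM (log2 -1.55, SE 0.620, edgeR adjusted p = 0.0487). DLL4 counts were 2, 10 and 10 in vehicle libraries and 22, 16 and 22 in DOX libraries (log2 1.52, SE 0.583, edgeR adjusted p = 0.0396). The DLL3 call was lost in 6 of 12 alternative settings and the DLL4 call in 8 of 12. Leaving out 1 library at a time gave log2 values from -2.32 to -1.05 for DLL3 and from 1.01 to 1.88 for DLL4.

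In HSC3 cells the 3 most abundant ligands fell. JAG1, JAG2 and DLL1 fell to 53.2%, 56.8% and 38.5% of the vehicle level, NOTCH2 rose slightly, and NOTCH1, NOTCH3, DLL3 and DLL4 were not called. Among the 18021 genes tested 28.4% were called, 15.4% lower and 13% higher, against 3 members lower and 1 higher of 8 tested. At a fold change above 2 only DLL1 was lower and no member higher, beside 4.4% and 1.58% of all genes. The median log2 fold change was -0.54 over these members and -0.01 over all genes.

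JAG1 had 342, 343 and 349 CPM with vehicle and 184, 181 and 187 CPM with DOX in HSC3 cells, and both sets of libraries were tight (log2 -0.91, SE 0.0544, edgeR adjusted p = 8.80e-07). JAG2 fell from 83.8, 89.5 and 70.3 CPM to 39.8, 52.5 and 46.3 CPM, with the highest DOX library well under the lowest vehicle library (log2 -0.82, SE 0.116, edgeR adjusted p = 3.56e-04). DLL1 had the largest called change of the members in this line, from 15.9, 16.8 and 14.9 CPM to 4.89, 6.11 and 7.36 CPM (log2 -1.38, SE 0.153, edgeR adjusted p = 6.69e-05). DLL4 counts were 22, 54 and 38 in vehicle libraries and 78, 88 and 92 in DOX libraries, but the CPM of the groups overlapped (log2 0.74, SE 0.517, edgeR adjusted p = 0.344). DLL3 varied from 0 to 66 counts among the DOX libraries. The summed ligand level went from 54.1 ± 1.47 to 28.8 ± 1.27 CPM per kb, and the JAG1 share was 68.6% ± 3.21.

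NOTCH1 in HSC3 had 18.4, 16.2 and 15.2 CPM with vehicle and 14.7, 19.9 and 19.4 CPM with DOX. Replicate 1 with DOX was the lowest of all 6 libraries, and the change was not called (log2 0.11, SE 0.136, edgeR adjusted p = 0.609). NOTCH2 rose from 213, 200 and 210 CPM to 232, 248 and 244 CPM without overlap (log2 0.21, SE 0.0610, edgeR adjusted p = 0.0246), a call that was lost in 7 of 14 alternative settings. NOTCH3 had from 98 to 153 counts in vehicle libraries and from 54 to 105 in DOX libraries. Each DOX library had a lower CPM than each vehicle library (0.364, 0.779 and 0.794 against 0.850, 1.48 and 1.28), yet the change was not called (log2 -0.90, SE 0.392, edgeR adjusted p = 0.117). A single fit over the 12 libraries called it (edgeR adjusted p = 0.00711), and the adjusted p reached 0.353 among the other alternatives. NOTCH4 went from 2, 14 and 24 counts to 0 in all 3 DOX libraries and was not tested. If each count were a separate molecule, a 0 would allow up to 3 counts or 0.0248 CPM in any of them. The estimated counts per molecule were 17.3, 8.98 and 11.3 in HSC3 DOX replicates 1, 2 and 3, so a 0 there allows more than this limit. A fall of NOTCH4 thus cannot be told apart from the poor precision of these libraries at low counts. NOTCH2 made up 90.6% ± 1.20 of the HSC3 receptor level with DOX, and the summed level was 15.9 ± 0.765 CPM per kb against 13.9 ± 0.452 with vehicle.

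**Figure D2:**
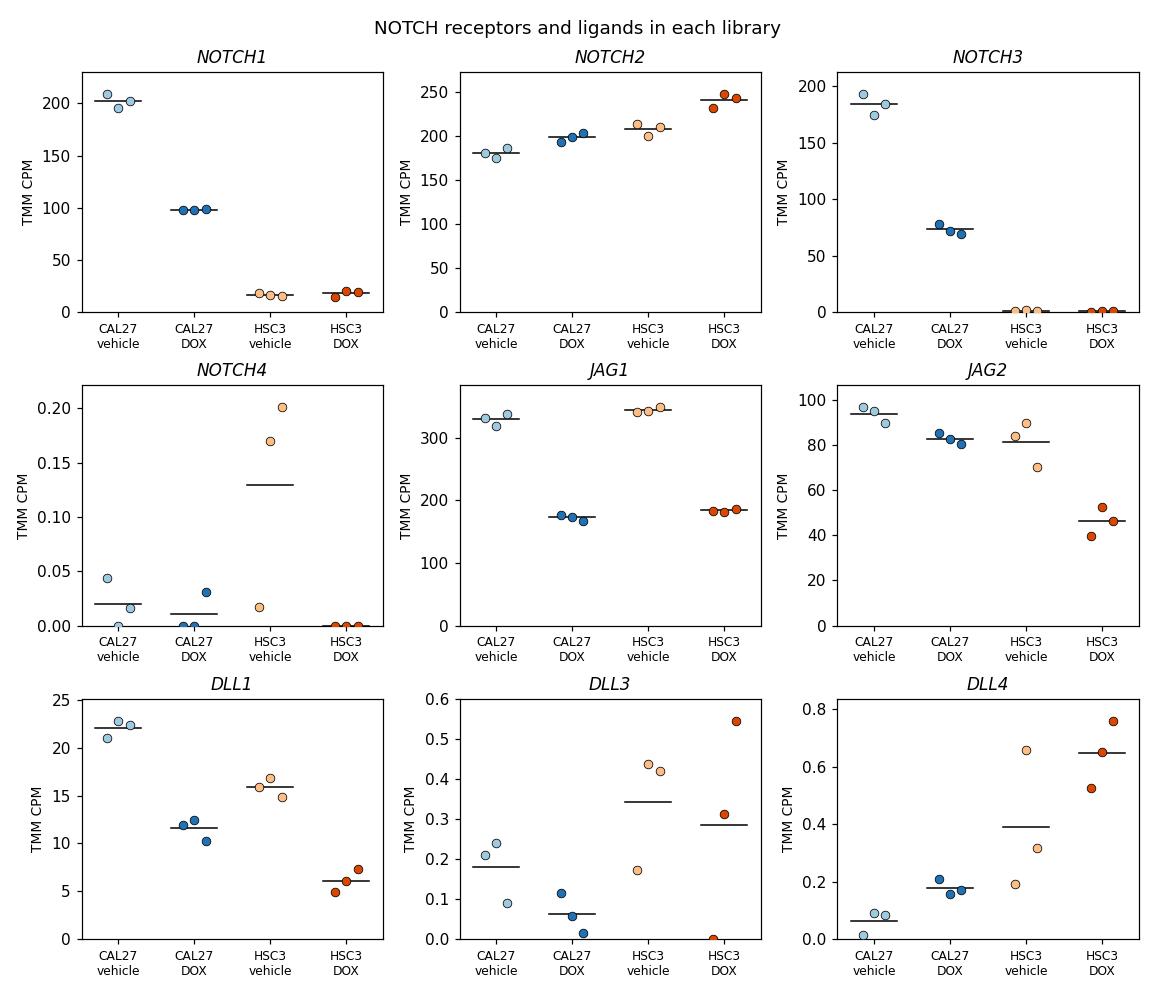
Each panel gives 1 gene in TMM CPM on a linear axis from 0, with 1 point per library, 3 libraries per group and a line at the group mean. JAG1 falls by nearly the same step in both lines, NOTCH1 falls from 202 to 98.2 CPM in CAL27 and overlaps between HSC3 groups, and the DLL3, DLL4 and NOTCH4 panels cover less than 1 CPM.

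Whether a change differed between the lines was tested as an interaction in 1 fit over the 12 libraries, taken as the HSC3 change minus the CAL27 change. It called 20.6% of the 20694 genes tested, 12.3% lower and 8.25% higher, and 2 of the 8 members tested. NOTCH1 had an interaction of 1.16 (SE 0.135, edgeR adjusted p = 2.24e-05), as it fell in CAL27 and was not called in HSC3. JAG2 had an interaction of -0.63 (SE 0.133, edgeR adjusted p = 0.00292), its fall being the larger one in HSC3. NOTCH1 was called in the same direction in all 18 alternative settings of this test, and JAG2 in all but the one that also asked for a fold change above 2. At that fold change 3.02% of genes were lower and 2.19% higher in the interaction, and NOTCH1 was the only member past it. For JAG1 the interaction was 0.02 (SE 0.0614, edgeR adjusted p = 0.854) and for NOTCH2 0.08 (SE 0.0679, edgeR adjusted p = 0.489), and the lines could not be separated for either gene. DLL1 had -0.44, which was not called (SE 0.174, edgeR adjusted p = 0.0909) except without HSC3 DOX replicate 3 (-0.58, edgeR adjusted p = 0.0199, and up to 0.229 in the other alternatives). NOTCH3 had 0.43 (SE 0.273, edgeR adjusted p = 0.310), and 0.77 (edgeR adjusted p = 0.00610, and up to 0.609 in the other alternatives) without HSC3 DOX replicate 1. The values for DLL3 (1.26, SE 1.5) and DLL4 (-0.77, SE 0.844) were dominated by their error.

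**Figure D3:**
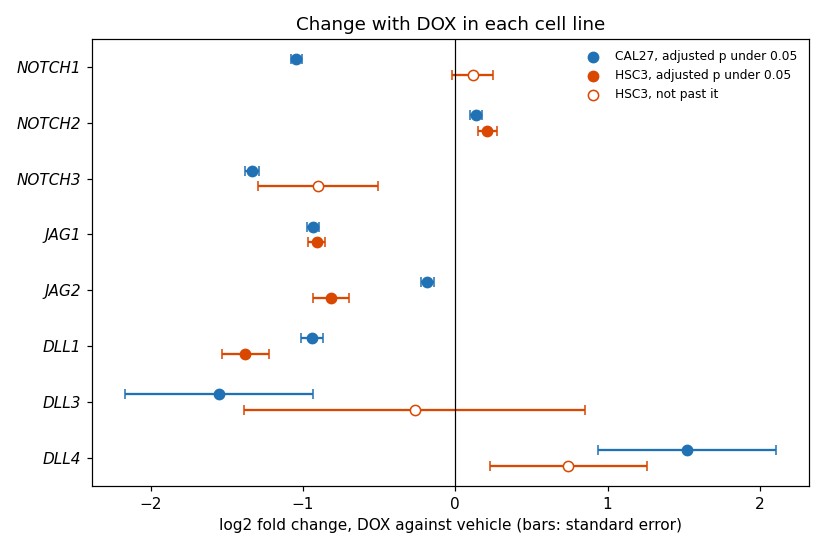
Points give the log2 fold change with DOX against vehicle of the 8 members tested, in CAL27 (blue) and HSC3 (orange), with bars of 1 standard error, and open points did not pass an adjusted p of 0.05. JAG1 lies at -0.93 and -0.91 in the 2 lines, NOTCH1 at -1.04 and 0.11, and the DLL3 and DLL4 bars are the widest.

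For each member called with DOX, the genes with the most similar profile were sought among 8630 or 8631 well expressed genes, by the root mean square difference of log2 CPM relative to the vehicle mean of the same line over the 12 libraries. The nearest to JAG1 were SNX30 (0.0548), MAP3K1 (0.0782) and TMOD2 (0.0807). For NOTCH1 they were ARHGAP23 (0.0780), IKBKE (0.0894) and UBE2L6 (0.104), all lower in CAL27 and nearly level in HSC3. DLL1 was closest to NEURL1B (0.119), followed by CELSR2 (0.127) and PSMB5 (0.127), and JAG2 to H2BC17 (0.0750), ST14 (0.0807) and ING5 (0.0871). NOTCH2, whose change was small, had FBXO42 (0.0391), ATXN1L (0.0401) and CLEC16A (0.0414). NOTCH3 (MXRA5, 0.260), DLL3 (KRT15, 1.30) and DLL4 (CPA4, 0.629) had no gene as near. These members had low counts, NOTCH3 in HSC3 (54 to 153) and DLL3 and DLL4 in both lines. Counting error and an unusual profile thus cannot be told apart for them.

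The rest of the pathway was read from 64 genes in 6 lists. In CAL27, 24 of 62 tested fell and 12 rose, and in HSC3 14 of 59 fell and 9 rose, with medians of -0.08 and -0.07 (log2) beside -0.01 over all genes in each line. Of all genes, 21.8% fell and 22.6% rose in CAL27 and 15.4% fell and 13% rose in HSC3. The interaction called 8 lower and 9 higher of 62, beside 12.3% and 8.25% of all genes, and the vehicle comparison called 22 lower and 33 higher of 62, beside 32.3% and 30.6%.

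**Figure D4:**
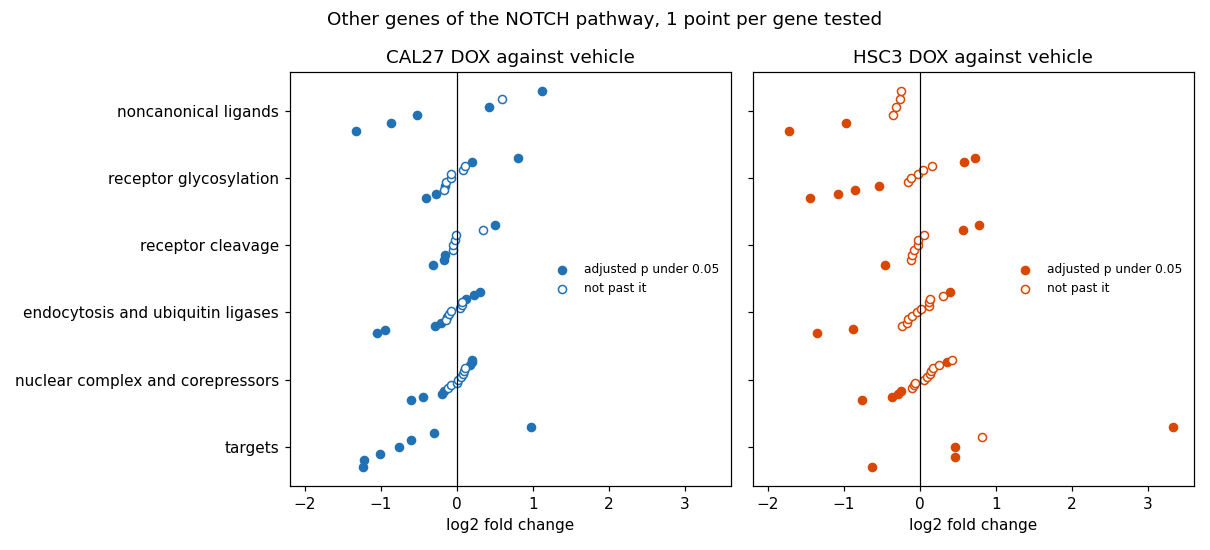
Each point is the log2 fold change with DOX of 1 tested gene of the 6 pathway lists in CAL27 (left) and HSC3 (right), filled where the adjusted p was under 0.05. Targets lie mostly to the left in CAL27 (6 of 7 lower, beside 21.8% of all genes). They lie mostly to the right in HSC3 (3 of 5 higher, beside 13% of all genes), and most cleavage and nuclear complex genes lie near 0.

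Among the target genes tested in CAL27, 6 of 7 fell and 1 rose, beside 21.8% and 22.6% of all genes. NRARP, a feedback inhibitor that is a direct target of the pathway, fell from 88.9, 78.9 and 90.5 CPM to 42.4, 35.8 and 32.7 CPM (log2 -1.22, SE 0.0953, edgeR adjusted p = 2.19e-05). The HES and HEY repressors HEY2 (-1.23), HEYL (-1.01), HEY1 (-0.77), HES4 (-0.60) and HES1 (-0.31) also fell, and HES7, at under 1 CPM, rose by 0.98. HES4, HES1 and HES7 were named here after their values were seen. In HSC3, NRARP rose from 5.92, 6.01 and 6.05 CPM to 8.26, 8.51 and 7.99 CPM (log2 0.46, SE 0.119, edgeR adjusted p = 0.0146) and HES1 from 23.5, 24.0 and 24.8 CPM to 33.7, 33.5 and 32.7 CPM (log2 0.46, SE 0.0790, edgeR adjusted p = 0.00122). HES7 rose by 3.33 on the log2 scale, from between 4 and 13 counts with vehicle. HEY1 fell in HSC3 as it did in CAL27 (log2 -0.63, SE 0.167, edgeR adjusted p = 0.0160). The interaction was called for NRARP (1.68, edgeR adjusted p = 3.92e-07), HES1 (0.77, edgeR adjusted p = 7.58e-05), HES4 and HES7, all positive. That is 4 of 7 targets, beside 8.25% of all genes higher. The interaction was not called for HEY1 (0.14, edgeR adjusted p = 0.747). NRARP stood at 6.96% of the CAL27 level in HSC3 vehicle libraries (log2 -3.85, edgeR adjusted p = 3.48e-14). Of the 7 targets tested, the vehicle comparison called 6 lower and 1 higher in HSC3, beside 32.3% and 30.6% of all genes. HES1 had means of 30.7 CPM in CAL27 and 24.1 CPM in HSC3 vehicle libraries, and HEY1 3.76 and 5.37 CPM.

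On the ligand side, NEURL1B, a ubiquitin ligase that drives ligand endocytosis, fell in both lines, from 23.6, 22.1 and 23.2 CPM to 12.8, 11.7 and 11.5 CPM in CAL27 (log2 -0.94, SE 0.0608, edgeR adjusted p = 1.31e-10) and from 20.6, 18.0 and 17.6 CPM to 6.01, 8.33 and 7.69 CPM in HSC3 (log2 -1.36, SE 0.142, edgeR adjusted p = 4.17e-05). MIB1, the main ligase for Jagged and Delta-like ligands, had values of 0.07 and 0.12 (log2) and was not called in either line. Of 14 genes of endocytosis and ubiquitin ligases, 5 fell and 3 rose in CAL27, beside 21.8% and 22.6% of all genes. In HSC3 2 of 13 fell and 1 rose, beside 15.4% and 13% of all genes, and the other gene that fell was NEURL1 (-0.88). FBXW7, which marks the receptor's intracellular domain for destruction, rose in both lines (log2 0.30 and 0.39).

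Of 11 genes of receptor glycosylation, the interaction called 4 lower and 1 higher, beside 12.3% and 8.25% of all genes, and 6 were not called. LFNG, a fringe glycosyltransferase, had 9.83, 11.8 and 9.61 CPM with vehicle and 2.91, 5.56 and 3.02 CPM with DOX in HSC3 (log2 -1.44, SE 0.236, edgeR adjusted p = 9.19e-04), and was not called in CAL27 (log2 -0.15, SE 0.0618, edgeR adjusted p = 0.0532). MFNG fell with it in HSC3 (log2 -1.08, edgeR adjusted p = 0.00621) and had 0.10 in CAL27, and the interaction was called for LFNG (-1.29, edgeR adjusted p = 0.00200) and MFNG (-1.18, edgeR adjusted p = 0.0138). RFNG was called in neither line. EOGT, which adds O-GlcNAc to receptor repeats, fell in both lines (log2 -0.41 and -0.86) and the xylosyltransferase GXYLT1 rose in both (0.80 and 0.58). In all, 3 of 11 glycosylation genes fell and 2 rose in CAL27, beside 21.8% and 22.6% of all genes. In HSC3 4 fell and 2 rose, beside 15.4% and 13% of all genes.

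Of the cleavage genes, FURIN, the protease of receptor maturation, rose in both lines (log2 0.50 in CAL27 and 0.57 in HSC3). ADAM10, the protease of ligand-bound receptors, was called in neither line (-0.05 and -0.12), nor was NCSTN. In the nuclear complex 4 of 15 genes fell in each line, with 3 rising in CAL27 and 1 in HSC3. Of all genes, 21.8% fell and 22.6% rose in CAL27, and 15.4% fell and 13% rose in HSC3. RBPJ, the DNA-binding factor that all 4 receptors use, had 74.2, 72.7 and 73.8 CPM with vehicle and 77.8, 75 and 82.2 CPM with DOX in CAL27 (log2 0.09, edgeR adjusted p = 0.0972). In HSC3 it went from 260, 237 and 256 CPM to 221, 176 and 192 CPM (log2 -0.36, SE 0.0821, edgeR adjusted p = 0.00699), and the interaction was called (-0.45, edgeR adjusted p = 0.00523). HSC3 vehicle libraries held 3.41 times the RBPJ level of CAL27 (edgeR adjusted p = 8.60e-12). CTBP1, a corepressor, fell in both lines (-0.60 and -0.76) and SNW1, a coactivator, rose in both (0.20 and 0.36). Of 7 noncanonical ligands 6 were tested, of which 3 fell and 2 rose in CAL27 and 2 fell in HSC3, beside the same shares of all genes. MFAP2, at under 1 CPM in CAL27 and named there after its values were seen, fell in both lines (-1.33 and -1.72), DLK2 (-0.86) and EGFL7 (-0.53) fell and DNER rose (1.12) in CAL27, while CNTN1 rose in CAL27 (0.43) and fell in HSC3 (-0.98), with an interaction of -1.40 (edgeR adjusted p = 2.32e-06).

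**Figure D5:**
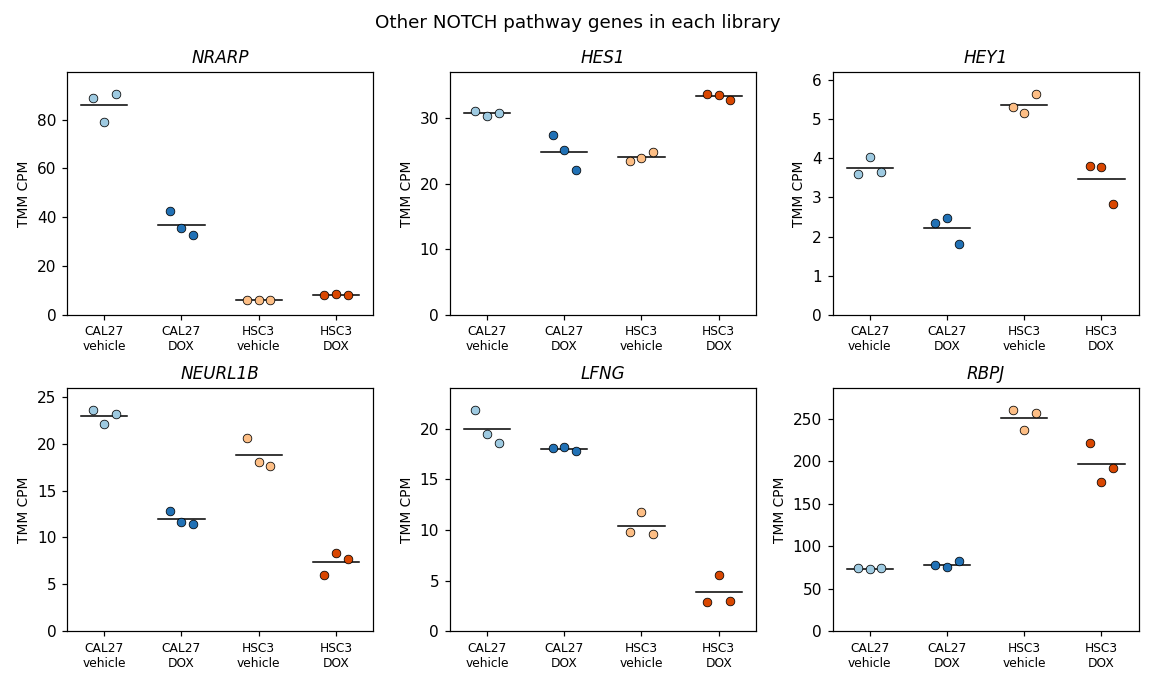
TMM CPM of 6 pathway genes on linear axes from 0, with 1 point per library, 3 libraries per group and a line at the group mean. NRARP falls in CAL27 and rises in HSC3, NEURL1B falls in both, LFNG and RBPJ fall in HSC3, and HEY1 falls in both.

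Squamous markers were read beside the members. The summed level of 8 keratinocyte markers was 6361, 6096 and 6154 CPM with vehicle and 3281, 3197 and 3066 CPM with DOX in CAL27. In HSC3 it was 6005, 6652 and 5984 CPM with vehicle and 2841, 3312 and 3246 CPM with DOX. All 8 were detected in every library, and KRT5 had the highest CPM in each. Per kb of exon, SFN (mean 375.9) stood above KRT5 (349.2) in HSC3 DOX libraries, with overlapping ranges. In each line 5 of the 8 fell (KRT5, KRT14, KRT6A, TP63 and DSG3), beside 21.8% of all genes in CAL27 and 15.4% in HSC3. EPCAM rose in both lines, and CDH1 and SFN were not called. TP63 fell by 1.01 on the log2 scale in CAL27 and by 1.21 in HSC3. The part of these markers in the changes of JAG1, DLL1 and the other members was not tested. Markers of other cell types had low levels. PTPRC, the common leukocyte antigen, PECAM1 and TIE1 of endothelium were too low to test, COL3A1 of fibroblasts was at 0 in all 12 libraries, and the endothelial list summed to between 8.98 and 15.4 CPM in CAL27 libraries, nearly all of it CDH5, and to between 0.499 and 1.53 CPM in HSC3. The fibroblast list summed to between 10.2 and 14.1 CPM in CAL27 and between 4.21 and 9.34 CPM in HSC3, led by COL1A1, and the leukocyte list to between 4.06 and 6.15 CPM and between 0.222 and 1.80 CPM, led by CD14. Of these markers, CDH5 (log2 -0.55), VWF (-0.99), LUM (-1.97), PDGFRB (-1.02), COL1A2 (-0.54) and ITGAM (-0.94) fell in CAL27. That is 2 of 2 endothelial, 3 of 4 fibroblast and 1 of 3 leukocyte genes tested, beside 21.8% of all genes. In HSC3, COL1A1 rose (0.73) and ITGAM fell (-2.11). The part of these markers in the changes of the members was not tested.

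Reads of a few members may be shared with other genes. NOTCH2 has partial copies of its first exons, the NOTCH2NL genes on chromosome 1, and 3.07% of 75-base windows of its longest transcript (349 of 11351) occurred in them, while 0 occurred in another receptor. NOTCH2NLC, the highest of the copies, had 10.4 ± 0.519 CPM in CAL27 vehicle and 9.39 ± 0.836 CPM in HSC3 vehicle libraries, beside 181 and 208 CPM for NOTCH2. NOTCH2NLC fell in CAL27 (log2 -0.42, edgeR adjusted p = 3.22e-04) while NOTCH2 rose. Exons of DLL1 overlap FAM120B on the opposite strand over 9.69% of their length, those of JAG1 an opposite-strand transcript over 3.29%, and those of JAG2 a same-strand transcript over 7.33%. Whether counting used strand is not given in the sources used here, so these reads cannot be told apart from those of the overlapping gene.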

How the data were processed

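RNA-seq of 12 libraries was analysed from 2 deposited tables of whole-number counts per gene, 1 per cell line. The authors made these counts from TruSeq Stranded poly(A) libraries. The submitters' processing notes name FastQC 0.11.9, STAR 2.7.9a, Subread 2.0.1, featureCounts and the build GRCh38; the strand setting and any removal of duplicate reads are not given in the sources used here. The 12 columns used were mapped by name, and the DOX columns of CAL27, numbered 4 to 6 where the labels number the samples 1 to 3, by group.

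The counts were fitted in R 4.3.3 with edgeR 4.0.16 (TMM, filterByExpr with a minimum count of 10 and total of 15, robust quasi-likelihood test), for each line and over all 12 libraries for the interaction and the vehicle comparison, 4 comparisons in all. DESeq2 1.42.0, other normalizations, no filter, a fold change above 2 and leave-one-out fits were alternatives. The fits were tested on simulated data with a single dispersion for all genes and changes placed only in genes with higher counts. That test does not cover low counts or the many zeros of the HSC3 DOX libraries. Coordinates and exon lengths came from GENCODE v44, sequences from RefSeq. Profiles used a pseudocount of 0.01 CPM and genes whose log2 CPM averaged 3 or more. The text names all members, MUC1 and, per pathway list and direction, up to 4 called genes by size of change. The members and lists were chosen with earlier results of these data known. Replicate libraries of a group differed by more than sampling noise in every pair. Same-numbered HSC3 libraries did not deviate together, so the numbers were not taken as pairs.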

Additional observations from a re-analysis of the deposited data

Results flagged for a closer look

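The change with DOX differed between CAL27 and HSC3, by an interaction term in edgeR, for 2 of the 8 members tested, beside 20.6% of all 20694 genes tested. NOTCH1 had a difference of 1.1587 on the log2 scale (SE 0.135, edgeR adjusted p = 2.24e-05): all 3 CAL27 DOX libraries lay below all CAL27 vehicle libraries, and the HSC3 groups overlapped. JAG2 had a difference of -0.63367 (SE 0.133, edgeR adjusted p = 0.00292), with all DOX libraries below all vehicle libraries in each line. The share of all genes whose groups did not overlap is not given here.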

How the results depend on the processing

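Of 509 alternative values for single members, 461 kept their direction and their side of the threshold, 34 lost a call, 11 gained one and 3 changed sign. The 3 were NOTCH2 (-0.067908) and JAG1 (-0.20493) in HSC3 against CAL27 vehicle with library totals, which also moved the median of all genes to -0.388, and DLL3 in HSC3 without DOX replicate 1 (0.32311, the other end of its leave-one-out range being -1.1336). Those totals gave 5 members lower and 1 higher in HSC3. The calls of NOTCH1 and NOTCH3 in CAL27 held in all 13 alternatives run.

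Asking for a fold change above 2 as well left 3 members lower and 1 higher and 5 pathway genes lower and 1 higher in CAL27, 1 lower, 0 higher, 4 lower and 1 higher in HSC3, and 0 members lower, 1 higher, 4 pathway genes lower and 4 higher in the interaction; in the vehicle comparison 2 members lower, 1 higher, 11 pathway genes lower and 9 higher were left. Members higher in CAL27 numbered 1 with DESeq2 or with counts divided by the estimated counts per molecule and 0 in 1 fit over 12 libraries, which called 13 pathway genes lower. By longest transcript, the vehicle shares of NOTCH3 and JAG1 were 36.84% and 71.4% in CAL27. Those of NOTCH2 and JAG1 were 90.81% and 75.82% in HSC3. Without length the same shares were 32.46%, 73.92%, 92.06% and 77.91%. In CAL27 NOTCH1 was then the first receptor in CPM, with 35.66%.

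Leaving out 1 library at a time gave 0 to 1 members higher in CAL27 and in HSC3, 1 to 2 higher and 1 to 2 lower in the interaction, and 8 to 15 pathway genes higher in HSC3, the 15 without DOX replicate 1, the library with the most genes at 0. With the replicate number as a block, HSC3 had 3 members lower and 0 higher, and NOTCH2 (0.21, edgeR adjusted p = 0.0560) lost its call (range over alternatives 5.35e-04 to 0.136). Same-numbered HSC3 libraries correlated between -0.0853 and 0.0907, and 1 of 3 vehicle libraries correlated best with its own number. No paired analysis was possible in CAL27 because its DOX columns, numbered 4 to 6, share no number with the vehicle columns. DLL3, DLL4 and NOTCH4 rest on under 100 counts per library, and HSC3 DOX libraries are the least precise at low counts.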
